A study of Mus musculus with 2 samples.

Results

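The miR-17-92 cluster is a single primary transcript that carries the hairpins of miR-17, miR-18a, miR-19a, miR-20a, miR-19b and miR-92a, and miR-92b is a separately encoded relative of miR-92a. Its levels were read here in 2 small RNA libraries of fibro-adipogenic progenitors (FAPs), mesenchymal cells resident in skeletal muscle from which adipocytes and fibroblasts can arise. Members were chosen by name, as every listed row named for one of these 7 miRNAs, on either arm of its hairpin. That gave 14 of the 628 mature miRNAs in the deposited table.

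One library came from cells kept for 24 h in adipogenic differentiation medium (ADM) and one from cells kept for 24 h in basal medium (BM), which held 10% horse serum (HS) in DMEM. What ADM contained is not stated in the labels. Both cultures were wild-type (WT) FAPs of strain C57Bl/6, sorted from skeletal muscle as Sca1+ cells and first grown to about 80% confluence with 5 ng/ml FGF, 20% FBS and 10% HS. The age of the animals, any pooling of them, and whether both cultures came from the same sort are not stated in the labels. With 1 library per medium there is no replicate check and no test, so every difference below is one between these libraries, and intervals cover counting error only.

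The polycistron is transcribed in dividing cells under Myc and E2F factors, and it is known for favouring proliferation and cell survival. In preadipocytes it has been linked to the clonal expansion that precedes fat cell formation, through repression of the pocket protein Rbl2. Each hairpin gives a 5p and a 3p arm. Usually one of them, the guide, is kept in Argonaute, and its seed (bases 2 to 8) pairs with target mRNAs, while the other arm is mostly degraded.

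The 7 guide arms fall into 4 seed groups, and the mature sequences show which members can share targets. RefSeq (GRCm38.p6) held 13 of the 14 members by name, the exception being miR-19a-5p. The sequences run 5′ to 3′ with the seed in capitals.
mmu-miR-17-5p: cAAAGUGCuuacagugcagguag
mmu-miR-20a-5p: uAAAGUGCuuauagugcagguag
mmu-miR-18a-5p: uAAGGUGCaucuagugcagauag
mmu-miR-19a-3p: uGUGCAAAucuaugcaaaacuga
mmu-miR-19b-3p: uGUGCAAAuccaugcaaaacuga
mmu-miR-92a-3p: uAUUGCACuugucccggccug
mmu-miR-92b-3p: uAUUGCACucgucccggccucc

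Positions are counted from 1 at the 5′ end. miR-19b-3p differs from miR-19a-3p by 1 base, U11C. miR-20a-5p differs from miR-17-5p by 2 bases, C1U and C12U. miR-92b-3p differs from miR-92a-3p by U10C and G21C and is 1 base longer. Reads that fit more than 1 of such close relatives could have been assigned as whole reads to either, or counted for each. The authors' treatment of such reads is not given, so levels of these pairs are uncertain to that extent.

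The 6 hairpins of the cluster lie within 836 bases of chromosome 14 on the plus strand (GRCm38, GENCODE M21), from Mir17 at 115043671-115043754 to Mir92-1 at 115044427-115044506. All 6 fall inside the last exon of the lincRNA Mir17hg (exon at 115043271-115046727). Mir92b lies on the minus strand of chromosome 3 at 89227116-89227198, between genes, 28 bases upstream of the annotated start of Mtx1, a gene for a mitochondrial import protein. miR-19b-3p and miR-92a-3p have a further hairpin each on chromosome X, Mir19b-2 at 52741983-52742066 and Mir92-2 at 52741838-52741928, in the paralogous miR-106a-363 cluster. Reads of these 2 guides therefore cannot be assigned to one chromosome.

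The hairpins of Mir92-1 and Mir92b are shown because their guides are the members that stood apart from the others. Capitals mark the 5p and the 3p arm.
Mir92-1: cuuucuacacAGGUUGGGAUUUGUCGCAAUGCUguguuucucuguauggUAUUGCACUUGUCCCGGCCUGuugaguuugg
Mir92b: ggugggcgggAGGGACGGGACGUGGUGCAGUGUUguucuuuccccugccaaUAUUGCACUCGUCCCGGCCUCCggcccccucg
The passenger arm of miR-92a tells its hairpins apart, since miR-92a-1-5p comes from chromosome 14 and miR-92a-2-5p from chromosome X.
miR-92a-1-5p: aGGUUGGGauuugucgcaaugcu
miR-92a-2-5p: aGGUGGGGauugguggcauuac
These arms differ at 5 of 22 compared bases. miR-92a-1-5p was listed and miR-92a-2-5p was not.

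Levels are given in RPM, where 1% of reads is 10000 RPM, of the 790617 reads taken as 100% in ADM and the 755193 in BM. A single read equals 1.26 RPM in ADM and 1.32 RPM in BM. Above a mean of 10 RPM over both libraries stood 10 members, which were compared, and 4 were below it. Each read stands for 1 mature miRNA, so no length scaling was needed, although adapters join some sequences better than others and levels of different miRNAs are compared only as shares of reads.

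In ADM, the guides of miR-17, miR-19a, miR-19b and miR-20a stood at 1.90 to 2.41 times their BM level. The guide of miR-18a stood at 1.53 times, with a counting interval that includes 1 (0.984 to 2.40). The far more abundant miR-92a-3p was nearly level, and miR-92b-3p was 6.18-fold lower. A member was called higher or lower where log2((ADM + 1)/(BM + 1)) in RPM reached 1 in either direction. By this rule 3 of the 10 members were higher in ADM (miR-20a-5p, miR-92a-1-5p and miR-19a-3p), against 10.7% of all 337 miRNAs above the minimum. The count depends on the library scaling. Scaling by the trimmed mean of M values left 1 (miR-20a-5p), and the count was 5 with miR-22-3p and miR-21a-5p left out of the denominators. The share of all 337 called under these scalings was not computed. One member, miR-92b-3p, was lower, against 20.5% of all. Together, 4 of the 10 were at least 2-fold apart in either direction, against 31.2% of all, and the other 6 were neither. The median log2 ratio of the members was 0.76, beside -0.02 for all 337, and the ratio was above 0 for 7 of the 10 members and for 48.7% of all.

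**Figure D1:**
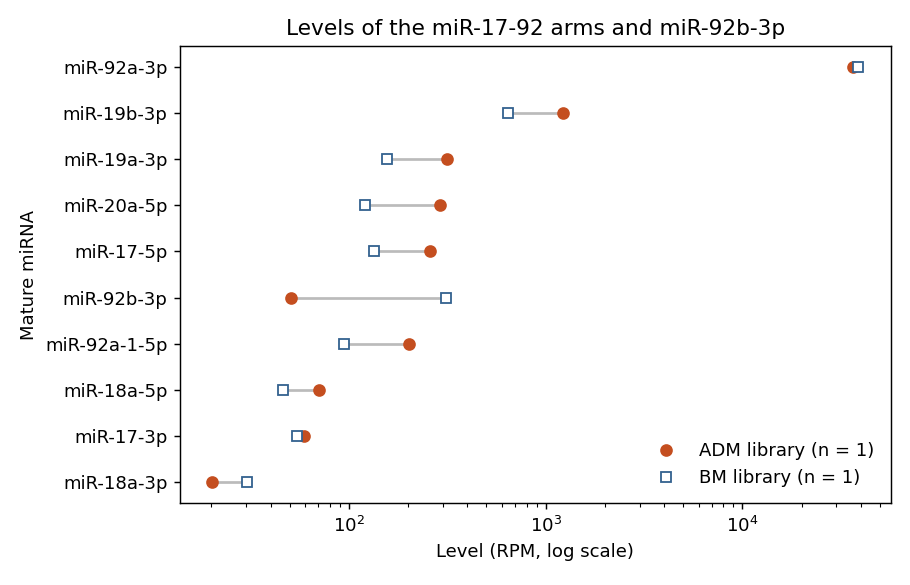
Level of each of the 10 members above the minimum in the ADM library (filled circles) and the BM library (open squares), in RPM on a log axis, 1 library each. miR-92a-3p lies far to the right of all others, and miR-92b-3p is the member whose points lie farthest apart.

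miR-20a-5p had the highest ratio of the members. It shares its seed with miR-17-5p, and targets known for this seed include the cell cycle inhibitor Cdkn1a. miR-20a-5p had 230 reads (291 RPM) in ADM, against 91 reads (120 RPM) in BM. It was 2.41-fold higher in ADM (95% counting interval 1.89 to 3.11), which placed it 21st from the top among the 337. miR-17-5p had 204 reads (258 RPM) in ADM, against 101 reads (134 RPM) in BM. Its 1.93-fold ratio (1.51 to 2.47; log2 ratio 0.94) lay just outside the 2-fold limit, and the counting intervals of the 2 guides overlapped. Set against miR-17-5p within each library, miR-20a-5p had 1.13 reads per miR-17-5p read in ADM and 0.901 in BM, a log2 difference of 0.32 with an interval that includes 0 (-0.17 to 0.81).

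miR-19 is the part of the cluster best known as oncogenic in lymphoma. miR-19b-3p, the second most abundant member, had 967 reads (1223 RPM) in ADM, against 486 reads (644 RPM) in BM. Its ratio was 1.90 (1.70 to 2.12; log2 ratio 0.93), just outside the limit. miR-19a-3p had 249 reads (315 RPM) in ADM and 118 reads (156 RPM) in BM, a 2.02-fold ratio (1.61 to 2.53). With a log2 ratio of 1.01 it was the member just inside the limit, and it was not called with a pseudocount of 10 RPM (0.97) or after scaling by the trimmed mean of M values (0.90). The balance of these guides, which are 1 base apart, differed by less than counting error: 3.88 reads of miR-19b-3p per read of miR-19a-3p in ADM and 4.12 in BM, a log2 difference of -0.08 (-0.44 to 0.27).

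miR-18a-5p, whose seed differs from that of miR-17-5p by 1 base (A4G) and whose known targets include Ctgf, was the guide with the fewest reads in BM. It had 56 reads (70.8 RPM) in ADM and 35 reads (46.3 RPM) in BM. The counting interval of its 1.53-fold ratio (0.984 to 2.40) includes 1, so at this depth no difference was detectable.

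miR-92a-3p, studied in endothelial cells as a repressor of integrin alpha5, was on another scale. It had 28717 reads (3.63% of reads) in ADM, against 29253 reads (3.87%) in BM, and ranked 8th in ADM and 6th in BM among all listed miRNAs. Its ADM to BM ratio was 0.938 (0.923 to 0.953; log2 ratio -0.09). The log2 ratio stayed below 0 with each other scaling tried, at -0.20 to -0.01, though the size of the difference depends on the scaling.

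miR-92a-3p supplied most of the cluster's reads in both libraries, so shares within the cluster, which need no library scaling, show the difference among its guides. It made up 94.4% of the reads of the 6 cluster guides in ADM (94.1 to 94.6%) and 97.2% in BM (97.0 to 97.4%). There were 29.7 miR-92a-3p reads per miR-19b-3p read in ADM and 60.2 in BM, a log2 difference of -1.02 (-1.18 to -0.86). Against miR-20a-5p there were 125 in ADM and 321 in BM, a log2 difference of -1.36 (-1.72 to -1.01). The other 5 cluster guides together had 1706 reads in ADM, against 831 in BM, and were 1.96-fold higher in ADM (1.80 to 2.13).

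Among those other 5 guides no proportion differed beyond counting error. miR-19b-3p gave 56.7% of their reads in ADM (54.3 to 59.0%) and 58.5% in BM (55.0 to 61.9%). miR-19a-3p gave 14.6% in ADM (13.0 to 16.4%) and 14.2% in BM (11.9 to 16.8%). For miR-17-5p the shares were 11.96% in ADM (10.5 to 13.6%) and 12.2% in BM (10.0 to 14.6%), for miR-20a-5p 13.5% in ADM (11.9 to 15.2%) and 10.95% in BM (8.91 to 13.3%), and for miR-18a-5p 3.28% in ADM (2.49 to 4.24%) and 4.21% in BM (2.95 to 5.81%). The ADM and BM intervals overlap for each of the 5.

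Since miR-92a-3p outweighed the rest, the sum over all 14 members hardly differed: 30694 reads (3.88%) in ADM and 30460 reads (4.03%) in BM, a ratio of 0.963 (0.947 to 0.978) that turned to 1.01 with median ratio scaling and to 1.02 with miR-22-3p and miR-21a-5p left out of the denominators. Without miR-92a-3p the sum was 1977 reads in ADM and 1207 in BM, a ratio of 1.56 (1.46 to 1.68).

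**Figure D2:**
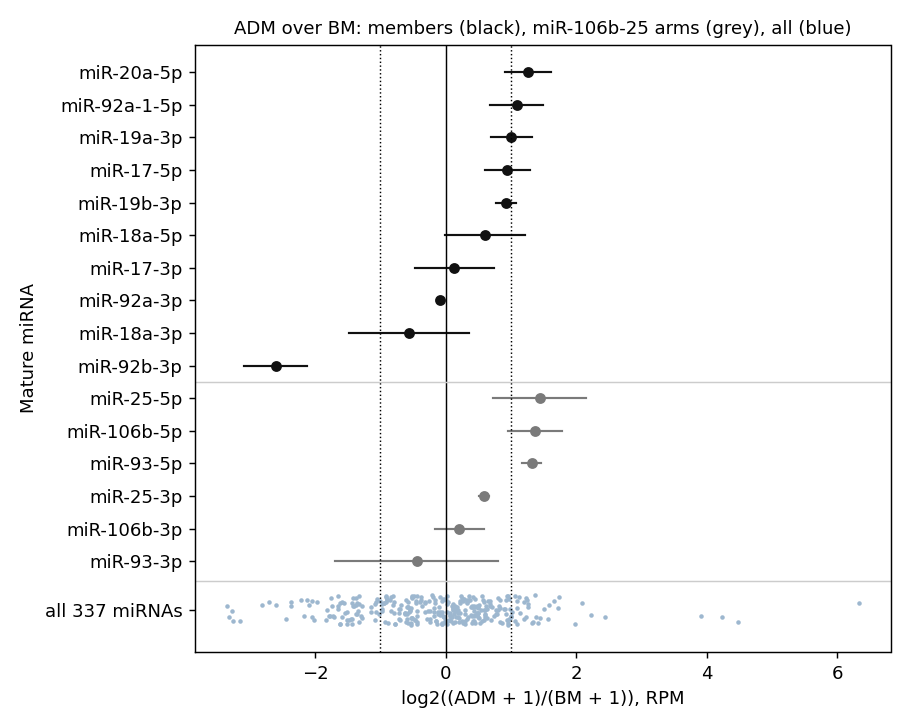
log2((ADM + 1)/(BM + 1)) in RPM for the 10 members above the minimum (black), the 6 arms of the miR-106b-25 cluster (grey) and all 337 miRNAs above the minimum (blue), with bars for 95% counting intervals and dotted lines at 2-fold. miR-20a-5p lies highest among the members at 1.26 and miR-92b-3p lowest at -2.60, outside most of the blue points.

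miR-92b-3p, which has been studied mostly in neural progenitors and carries the seed of miR-92a-3p, went the other way. It had 40 reads (50.6 RPM) in ADM, against 236 reads (313 RPM) in BM. The level was 6.18-fold lower in ADM (4.40 to 8.87), with a log2 ratio of -2.60, which ranked 330th from the top among the 337. Within the libraries, there were 718 miR-92a-3p reads per miR-92b-3p read in ADM and 124 in BM, a log2 difference of 2.53 (2.05 to 3.02). Its passenger arm miR-92b-5p had 0 reads in ADM and 1 in BM, so the second arm gives no information at this depth, where 3 counts equal 3.79 RPM in ADM and 3.97 RPM in BM.

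Of the sequence features, G and C content was highest for the miR-92 guides, at 63.6% for miR-92b-3p and 57.1% for miR-92a-3p, beside 34.8 to 47.8% for the other 5. Among the 290 miRNAs above the minimum with a RefSeq sequence, the 42 of at least 60% G and C had a median log2 ratio of -0.57, and the other 248 had -0.03. Across those 290 miRNAs, which share both libraries, G and C content and log2 ratio had a Spearman rho of -0.10 (Pearson r -0.08). The limit of 60% was chosen after the values were seen, and the part of base composition in the ratio of miR-92b-3p was not tested.

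miR-92a-1-5p is the passenger of the last hairpin. Its ratio was close to those of the miR-17, miR-19a, miR-19b and miR-20a guides and above that of its own guide. It had 159 reads (201 RPM) in ADM, against 71 reads (94.0 RPM) in BM, a 2.14-fold ratio (1.61 to 2.87). Its log2 ratio of 1.09 was 0.99, just outside the limit, after scaling by the trimmed mean of M values. There were 181 reads of miR-92a-3p per read of miR-92a-1-5p in ADM and 412 in BM, and the arms' log2 ratios differed by 1.18 (5p minus 3p), with a counting interval of 0.79 to 1.59 taken without the pseudocount. Some miR-92a-3p reads may come from chromosome X, whereas miR-92a-1-5p comes from chromosome 14, and the arms' difference can therefore not be assigned to the Mir92-1 hairpin alone.

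**Figure D3:**
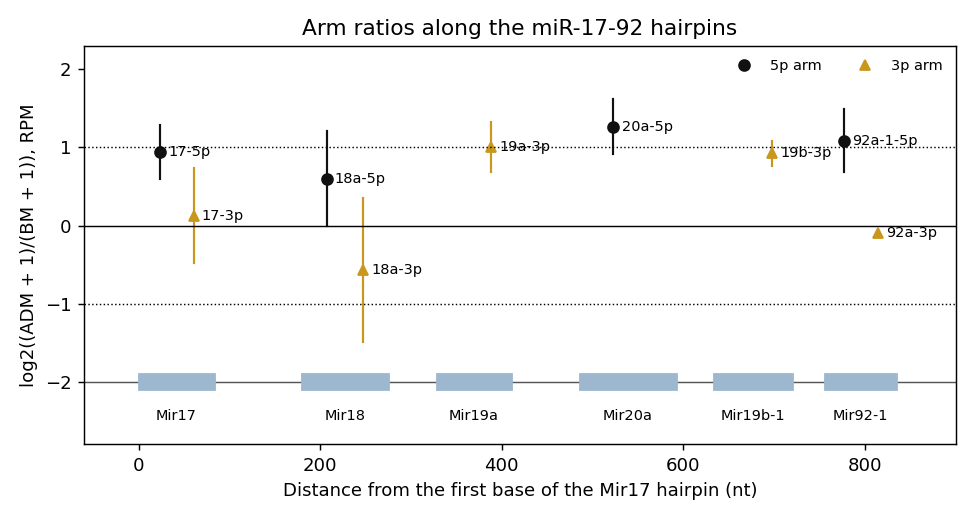
log2((ADM + 1)/(BM + 1)) in RPM of each arm above the minimum, plotted at its distance in nucleotides from the first base of the Mir17 hairpin, with 5p arms as circles, 3p arms as triangles, 95% counting intervals as bars and hairpins as boxes. The 5p arms lie between 0.60 and 1.26. The 3p arms lie between -0.57 and 1.01, with the guides miR-19a-3p at 1.01, miR-19b-3p at 0.93 and miR-92a-3p, at the end of the cluster, at -0.09. miR-19b-3p and miR-92a-3p are drawn at their chromosome 14 positions, although each has a further hairpin on chromosome X.

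For the 3p passengers of miR-17 and miR-18a no difference between the libraries was detectable at this depth. miR-17-3p had 47 reads in ADM and 41 in BM, a ratio of 1.09 with an interval that includes 1 (0.705 to 1.71). The 5p arm held 81.3% of the hairpin's reads in ADM (75.9 to 85.9%) and 71.1% in BM (62.9 to 78.4%), a log2 difference between arms of 0.81 (0.12 to 1.51 without the pseudocount). miR-18a-3p had 16 reads in ADM and 23 in BM, a ratio of 0.664 (0.328 to 1.31). For miR-18a the 5p arm held 77.8% of reads in ADM (66.4 to 86.7%) and 60.3% in BM (46.6 to 72.95%), and the arms differed by 1.17 (0.10 to 2.31 without the pseudocount).

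Both arms were above the minimum in 3 member hairpins, and in each the 5p arm was relatively higher in ADM, whether it was the guide (miR-17, miR-18a) or the passenger (miR-92a). The same held for 54 of all 101 such hairpins (53.5%), whose median difference was 0.06. In that list of 101, ordered from the largest positive difference, miR-92a ranked 7th, miR-18a 8th and miR-17 22nd.

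**Figure D4:**
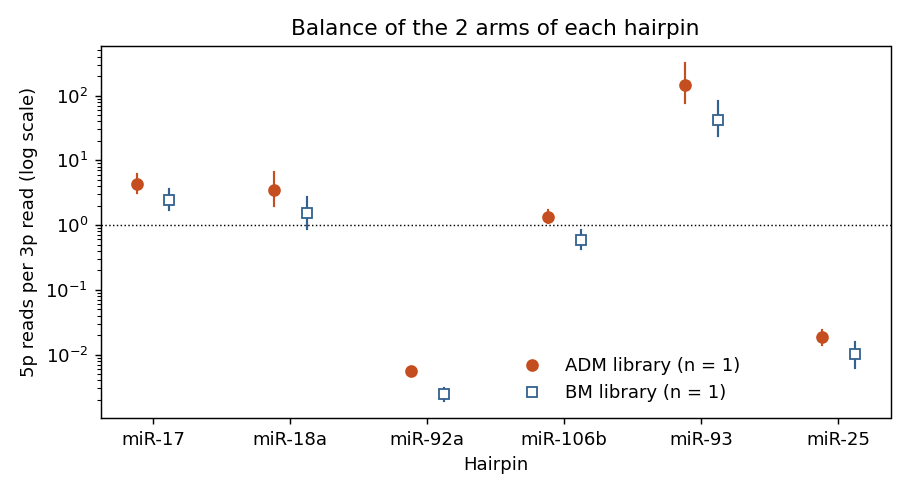
Reads of the 5p arm per read of the 3p arm, on a log axis, in the ADM library (filled circles, left) and the BM library (open squares, right) for 3 member hairpins and the 3 hairpins of the miR-106b-25 cluster, with exact 95% counting intervals. In each of the 6 hairpins the ADM point lies above the BM point.

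Of the 4 members below the minimum, miR-20a-3p had 5 reads in ADM and 3 in BM, miR-19b-1-5p had 4 in ADM and 0 in BM, miR-19a-5p had 0 in ADM and 1 in BM, and miR-92b-5p is given above. They were not compared. The ratio of 7.64 that the authors' deposited table gives for miR-19b-1-5p rests on a BM value of 0 that the authors replaced by that of 0.5 read. For miR-20a-5p the authors' deposited table gives 2.41 and for miR-92b-3p 0.162.

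The seed groups were also summed with the paralogous miRNAs of the same seed, most of them from the miR-106b-25 cluster in an intron of the replication licensing gene Mcm7. The relatives that add most reads are shown with the seed in capitals.
miR-93-5p: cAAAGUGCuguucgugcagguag
miR-106b-5p: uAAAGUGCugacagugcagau
miR-25-3p: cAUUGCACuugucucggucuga
The seed group of miR-17-5p and miR-20a-5p, with miR-93-5p and miR-106b-5p, had 2426 RPM in ADM and 1004 RPM in BM, a ratio of 2.42 (2.22 to 2.63). miR-93-5p gave 68.6% of that group's reads in ADM (66.4 to 70.6%) and 66.5% in BM (63.0 to 69.8%), so the 2 cluster members were its minor part. By themselves they had 549 RPM in ADM and 254 RPM in BM (ratio 2.16, 1.82 to 2.57).

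The miR-19 seed group has only miR-19a-3p and miR-19b-3p, and had 1538 RPM in ADM and 800 RPM in BM (ratio 1.92, 1.74 to 2.12). The miR-18a group had no other listed member. The miR-92 seed group had 40501 RPM in ADM and 41789 RPM in BM, a ratio of 0.969 (0.954 to 0.984) that turned to 1.01 with median ratio scaling and to 1.03 when miR-22-3p and miR-21a-5p were left out of the denominators. Inside it, miR-25-3p held 10.2% in ADM (9.85 to 10.5%) and 6.56% in BM (6.29 to 6.83%), miR-92b-3p 0.125% in ADM (0.0893 to 0.170%) and 0.748% in BM (0.656 to 0.849%), and miR-92a-3p 89.7% in ADM (89.3 to 90.0%) and 92.7% in BM (92.4 to 92.98%).

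**Figure D5:**
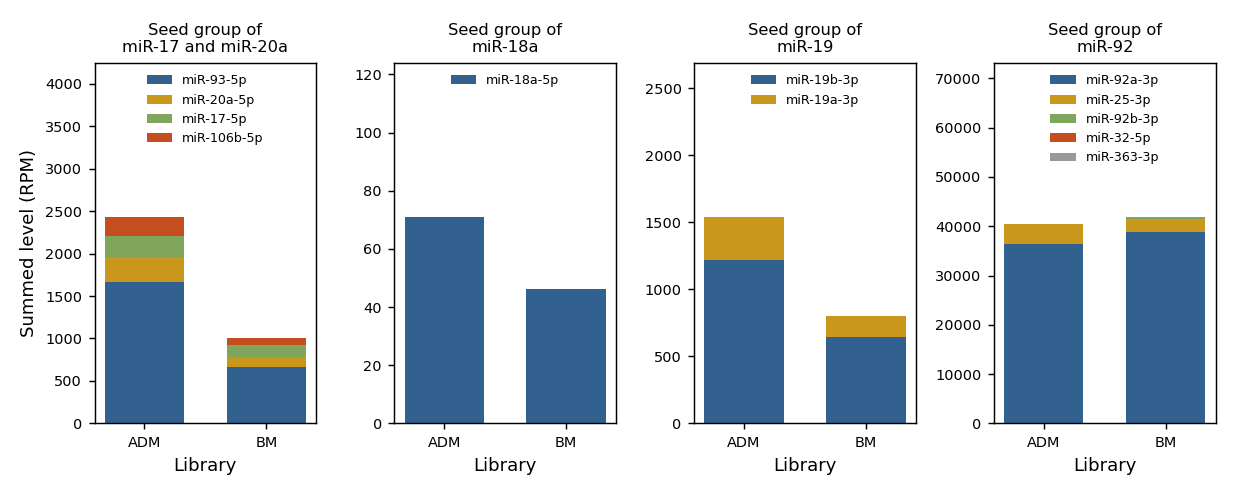
Summed level in RPM of the miRNAs that share each of the 4 seeds, in the ADM bar (left) and the BM bar (right) of each panel, stacked by miRNA; each panel has its own axis from 0. The groups of miR-17 with miR-20a (2426 RPM in ADM, 1004 in BM) and of miR-19 (1538 RPM in ADM, 800 in BM) are taller in ADM, and that of miR-92 is nearly level (40501 RPM in ADM, 41789 in BM).

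The miR-106b-25 cluster, the closest paralogue with measured arms, had 3 of its 6 arms at least 2-fold higher in ADM, against 10.7% of all 337 miRNAs. Of its arms 0 were lower, against 20.5% of all, and 3 were neither. The median log2 ratio of the 6 arms was 0.95, beside -0.02 for all 337. miR-93-5p had 1315 reads in ADM and 504 in BM (2.49-fold, 2.25 to 2.77), and miR-106b-5p had 169 in ADM and 62 in BM (2.60-fold, 1.94 to 3.54). miR-25-5p, the other arm called higher, had 61 reads in ADM and 21 in BM (2.77-fold, 1.67 to 4.80). The cluster's miR-25-3p, which has the seed of miR-92a-3p, had 3259 reads in ADM and 2069 in BM (log2 ratio 0.59). There were 8.81 miR-92a-3p reads per miR-25-3p read in ADM and 14.1 in BM, a log2 difference of -0.68 (-0.77 to -0.60). In the 3 hairpins of the miR-106b-25 cluster, too, the 5p arm was relatively higher in ADM, as in 53.5% of all 101 such hairpins. For miR-93 the difference of 1.76 (0.54 to 3.05 without the pseudocount) rests on 9 reads of the 3p arm in ADM and 12 in BM. From the miR-106a-363 cluster, among names that belong to it alone, miR-363-3p was listed, with 1 read in ADM and 0 in BM. miR-32-5p, which also shares the miR-92 seed, had 4 reads in ADM and 1 in BM.

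The non-members most alike to 3 of the members were found by the distance between log2(RPM + 1) values over the 2 libraries. Nearest to miR-92a-3p was miR-10b-5p (distance 0.09), with 27448 reads in ADM and 28094 in BM. The next were let-7f-5p (0.40) and let-7c-5p (0.56). Nearest to miR-20a-5p were miR-5109 (0.22), miR-130b-3p (0.26) and miR-1198-5p (0.35). Nearest to miR-92b-3p was miR-337-5p (0.61), with 59 reads in ADM and 197 in BM, before miR-328-3p (0.91) and miR-497-5p (0.98).

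miRNAs on the lists for other cells also differed between the libraries, and the cells they came from are not known. The muscle list held 6 listed arms of miR-1a, miR-133a, miR-133b and miR-206, 2 of them above the minimum. It summed to 244 reads in ADM and 2315 in BM, of which miR-133a-3p had 231 in ADM and 2266 in BM. miR-133b-3p had 8 reads in ADM and 25 in BM, miR-1a-3p 2 in ADM and 4 in BM, and miR-206-3p 1 in ADM and 8 in BM. The haematopoietic and serum list had 4 listed arms, 2 of them above the minimum, and summed to 1352 reads in ADM and 4526 in BM. Nearly all of these lay in the joint row of miR-486-5p with miR-3107-5p, with 1342 reads in ADM and 4509 in BM. miR-486 is also counted among muscle-enriched miRNAs, so this sum is not specific to blood or serum. miR-451a had 1 read in ADM and 0 in BM, miR-150-5p had 3 in ADM and 1 in BM, and miR-142a, miR-144 and miR-223 were not listed. The endothelial miR-126 arms summed to 203 reads in ADM and 88 in BM. Of these, miR-126-5p had 168 in ADM and 61 in BM (2.63-fold, 1.95 to 3.59). For miR-126-3p, with 35 in ADM and 27 in BM, the interval of the ratio includes 1 (1.24, 0.728 to 2.13). The part of other cells or of serum RNA in the ratios of the members was not tested, and in bulk RNA fewer cells of a type and less RNA per cell cannot be told apart. Marker mRNAs of FAPs were not analysed here.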

How the data were processed

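Per the labels' protocols, mirVana-extracted small RNA went into Illumina TruSeq small RNA libraries, which were size-selected at 147 bp on a gel and sequenced on a MiSeq. The deposited tables name miRanalyzer, per the file headers, and the build was mm10, per the submitters' processing notes. The version, the filters and how multi-mapped reads were treated are not stated there. The authors expressed each miRNA as a percent of reads. Their second table adds the deposited ratio of ADM to BM and a log2 column headed ln2, whose values equal the log2 of the ratio.

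Every percent value was a whole multiple of the smallest value above 0 in its column (tolerance 0.001 read), which was taken as 1 read. This gave the denominators, of which 807 reads in ADM and 679 in BM lay outside listed miRNAs. RPM is the percent times 10000. Calls used a pseudocount of 1 RPM, which understates differences of low miRNAs, a minimum mean of 10 RPM and a 2-fold limit. Folds are ratios of percent values with 95% exact conditional (Clopper-Pearson) intervals, and shares have exact Clopper-Pearson intervals. Log2 differences between miRNAs and the bars around log2 ratios use normal counting intervals. Reads carry no molecular identifiers, so intervals and the floor of 3 counts cover counting error only. The calculations were tested on simulated data and run with Python 3.11.15, SciPy 1.17.1 and pandas 2.3.3. Hairpin positions are from GENCODE M21 and sequences from RefSeq, both on GRCm38, the assembly that mm10 names.

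Every listed arm of the 7 miRNAs is named, together with same-seed paralogues, the nearest miRNAs by level and fixed lists for other cells. Members and lists were chosen with earlier results of these data known. Alternatives were other pseudocounts, minimums, fold limits, scalings and member sets.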

Additional observations from a re-analysis of the deposited data

How the results depend on the processing

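With 1 library per medium, leaving out a replicate was not possible. No paired analysis was possible because each medium has a single library. The count of members at least 2-fold higher in ADM was 3. It was 1 with the trimmed mean of M values, which lowers all log2 ratios by 0.10, 5 with miR-22-3p and miR-21a-5p left out of the denominators, 6 at a 1.5-fold and 0 at a 3-fold limit. The count of lower members was 1, and 3 without a minimum, where 1 read in BM and 0 in ADM sufficed. The shares of all 337 miRNAs called, 10.7% higher and 20.5% lower, were computed under the main rule only. Whether the members' counts changed relative to all miRNAs under the alternatives was therefore not tested. The summed level of all members, ADM over BM, was 0.963; it was 0.896 with the trimmed mean of M values, 1.01 with median ratio scaling, 1.02 without miR-22-3p and miR-21a-5p in the denominators and 1.56 without miR-92a-3p, so its direction depends on these choices. The miR-92 seed group likewise went to 1.01 and 1.03. The share of miR-92a-3p among the cluster guides was lower in ADM by a difference of -2.85 percentage points, or -1.34 when miR-19b-3p, which has a chromosome X copy, was left out. The other 23 alternatives to these results stayed within a factor of 1.5 for counts and within counting intervals for the rest, and the median log2 ratio of the members kept its sign in each. Of the alternatives for single miRNAs, seed groups and arms, 64 stayed within the counting interval and 6 moved outside it in the same direction. Depth left the counting intervals of the miR-18a-5p, miR-18a-3p and miR-17-3p ratios including 1.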
